A study of Mus musculus with 93 samples.

Results

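Wild-type posterior eyecups of 17-month-old mice were compared with those of 9-month-old mice, 8 messenger RNA libraries at each age, 16 of the 93 libraries of the series. The libraries were chosen by their labels alone: posterior eyecup, genotype Wt and an age of 17 or 9 months. The posterior eyecup is the eye with the lens and the neural retina taken out, which leaves pigment epithelium, choroid and sclera together with whatever cornea, conjunctiva and eye muscle stays attached. All mice of the series were labelled female and untreated, and the wild-type mice are described as Efemp1+/+. The other groups drawn on here were 7 eyecups at 17 months and 8 at 9 months from mice homozygous for a knock-in of Efemp1 (Efemp1ki/ki, a model of Doyne honeycomb retinal dystrophy), 6 wild-type eyecups at 3 months, and 8 wild-type neural retinas each at 17 and 9 months. The labels name no promoter or Cre line for the knock-in. Whether every library is a mouse of its own is not in the labels, and p-values therefore measure the spread between libraries.

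In the outer eye, tissue macrophages sit in the choroid and sclera and, with age, in the space next to the pigment epithelium, where they take up shed membrane and lipid. Phagocytes in lipid-rich surroundings are known to switch on a set of genes that includes the surface receptors Trem2 and Itgax, the lysosomal inhibitor Cst7 and secreted osteopontin, Spp1. Circulating leukocytes enter such tissue through adhesion molecules on blood vessels, of which Vcam1 is one.

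Library totals ran from 14236127 to 28604699 estimated counts at 17 months (median 17270306) and from 16941519 to 34867103 at 9 months (median 19935872). Levels below are CPM, the count relative to a library's total after trimmed-mean scaling, and are not corrected for gene length, so they serve to compare libraries and not genes. The eyecup label was checked on its markers. All 20 genes of a pigment epithelium list were tested, and they summed to 1616 to 2729 CPM at 17 months (median 2086) against 1167 to 3486 CPM at 9 months (median 2440). Libraries also held neighbouring tissue in uneven amounts. Summed over 21 genes of skeletal muscle, levels were 5334 to 59030 CPM at 17 months (median 20740) and 4198 to 24210 CPM at 9 months (median 16470). The 4 fat genes Adipoq, Plin1, Cidec and Lep summed to 1.80 to 248 CPM at 17 months (median 22.4) and 4.33 to 70.7 CPM at 9 months (median 13.7). The same 3 libraries at 17 months, replicates 3, 5 and 8, were highest for muscle and for fat. The 18 ocular surface epithelium genes found in the table summed to 29360 to 52200 CPM at 17 months (median 37010) and 26830 to 75800 CPM at 9 months (median 48880). For 20 rod genes the sums were 1162 to 28950 CPM at 17 months (median 8067) and 2106 to 30430 CPM at 9 months (median 10890). The groups overlapped for each of these lists.

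**Figure D1:**
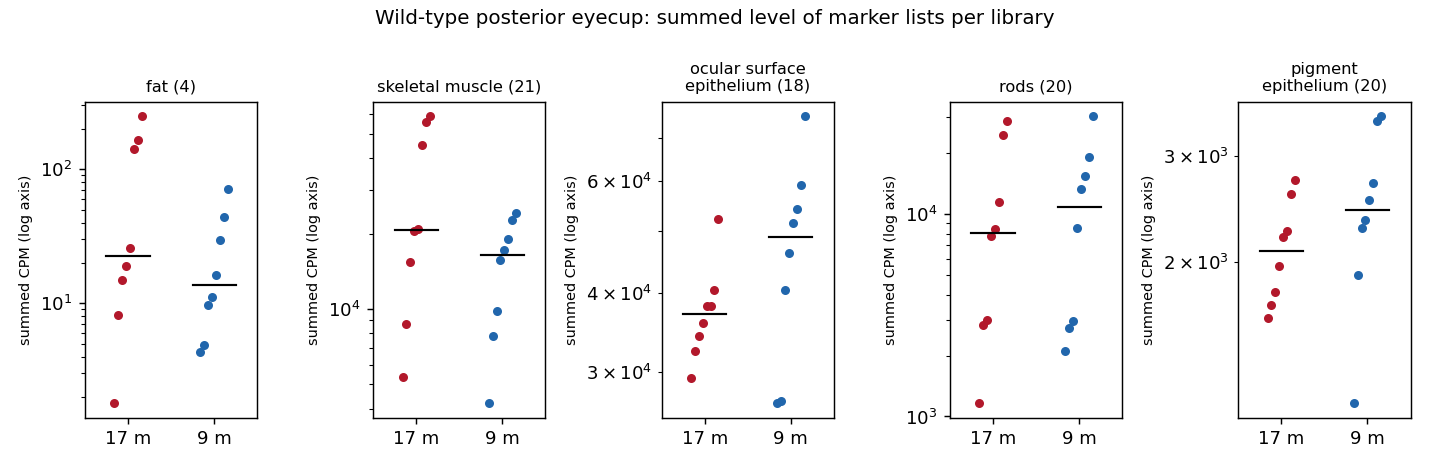
Summed CPM of 5 marker lists in each wild-type eyecup library (points, log axis), with the median as a bar, at 17 months (left of each panel) and 9 months (right). Fat and muscle sums are highest in 3 of the 8 libraries at 17 months, and the ages overlap for every list.

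Few genes differed between the ages beyond the spread of the libraries. Of 18003 genes tested, 9 were called (0.05%), a call being a p under 0.05 after Benjamini-Hochberg adjustment in edgeR's quasi-likelihood test over the 45 eyecup libraries. The 7 genes that rose at 17 months (0.0389% of genes tested) were Cst7, Mmp12, Itgax, Mpeg1, Cybb, Vcam1 and Abca1. The 2 called lower (0.0111%) were Alb and Cyp4a14, both with few reads that were unevenly spread over the libraries. In whole tissue, a changed number of cells of a type and a changed amount of RNA per cell cannot be told apart. Without adjustment, 7.32% of genes were higher and 4.24% lower at a p under 0.05. With size factors by the relative log expression method, 21 genes were called, 19 higher and 2 lower. When only these 16 libraries were fitted, which leaves fewer libraries to estimate the spread, none of 16701 genes tested was called. In that fit 1712 genes had an unadjusted p under 0.05, and the 7 genes had log2 fold changes of 0.49 to 1.66 with edgeR adjusted p of 0.118 to 0.309. Alb and Cyp4a14 did not pass its filter on low counts and were not tested. Why no gene was called was not tested. Leaving out single libraries gave 7 to 42 called genes. The count was 23, 17 and 18 without replicates 4, 5 and 7 of 9 months, and 18, 42 and 14 without replicates 1, 2 and 7 of 17 months.

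Cst7 encodes cystatin F, an inhibitor of lysosomal cathepsins. Its level was 2.30 to 3.70 CPM at 17 months (median 3.05) and 0.223 to 1.83 CPM at 9 months (median 1.05), so the 8 libraries of one age lay wholly above the 8 of the other. The log2 fold change was 1.62 ± 0.29 (SE, edgeR adjusted p = 0.00902). Mmp12, macrophage metalloelastase, which cuts elastin, had 6.81 to 16.5 CPM at 17 months (median 10.5) and 2.84 to 6.04 CPM at 9 months (median 5.15). Again no library at 9 months reached the lowest at 17 months, and the log2 fold change was 1.13 ± 0.21 (edgeR adjusted p = 0.0116). Itgax, the CD11c integrin of dendritic cells and activated phagocytes, had 9.62 to 16.5 CPM at 17 months (median 12.4) and 2.79 to 8.93 CPM at 9 months (median 6.57). Its log2 fold change was 0.89 ± 0.18 (edgeR adjusted p = 0.0231), without overlap. Itgax was not called without replicate 8 of 9 months (adjusted p = 0.0743) or replicate 6 of 17 months (0.0625). Mpeg1 encodes perforin-2, a pore-forming protein of phagosomes. It had 71.9 to 106 CPM at 17 months (median 88.7) and 33.1 to 67.3 CPM at 9 months (median 54.5), with a log2 fold change of 0.78 ± 0.15 (edgeR adjusted p = 0.0158) and no overlap.

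Cybb encodes the catalytic subunit of the phagocyte NADPH oxidase. It had 15.5 to 27.3 CPM at 17 months (median 21.6) and 8.47 to 19.3 CPM at 9 months (median 12.6), and the ranges overlapped. The log2 fold change was 0.76 ± 0.16 (edgeR adjusted p = 0.0362). The call of Cybb rested on single libraries: its adjusted p was 0.0732, 0.128 and 0.0528 without replicates 1, 8 and 9 of 9 months, and 0.0678, 0.0625, 0.0543 and 0.0501 without replicates 4, 6, 7 and 8 of 17 months. Vcam1, which binds leukocyte integrins on inflamed endothelium and is also made by fibroblasts and some macrophages, had 36.97 to 48.6 CPM at 17 months (median 44.6) and 18.5 to 40.6 CPM at 9 months (median 24.5). Its log2 fold change was 0.73 ± 0.13 (edgeR adjusted p = 0.00902), with 1 library at 9 months inside the range of 17 months. Abca1, the transporter that exports cholesterol to lipid-poor apolipoproteins, had 59.5 to 73.5 CPM at 17 months (median 69.1) and 39.6 to 58.6 CPM at 9 months (median 48.0). Its log2 fold change was smaller, 0.47 ± 0.08, yet its groups did not overlap (edgeR adjusted p = 0.00731). In limma on log2(TPM + 1), Abca1 missed the threshold (adjusted p = 0.0561).

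**Figure D2:**
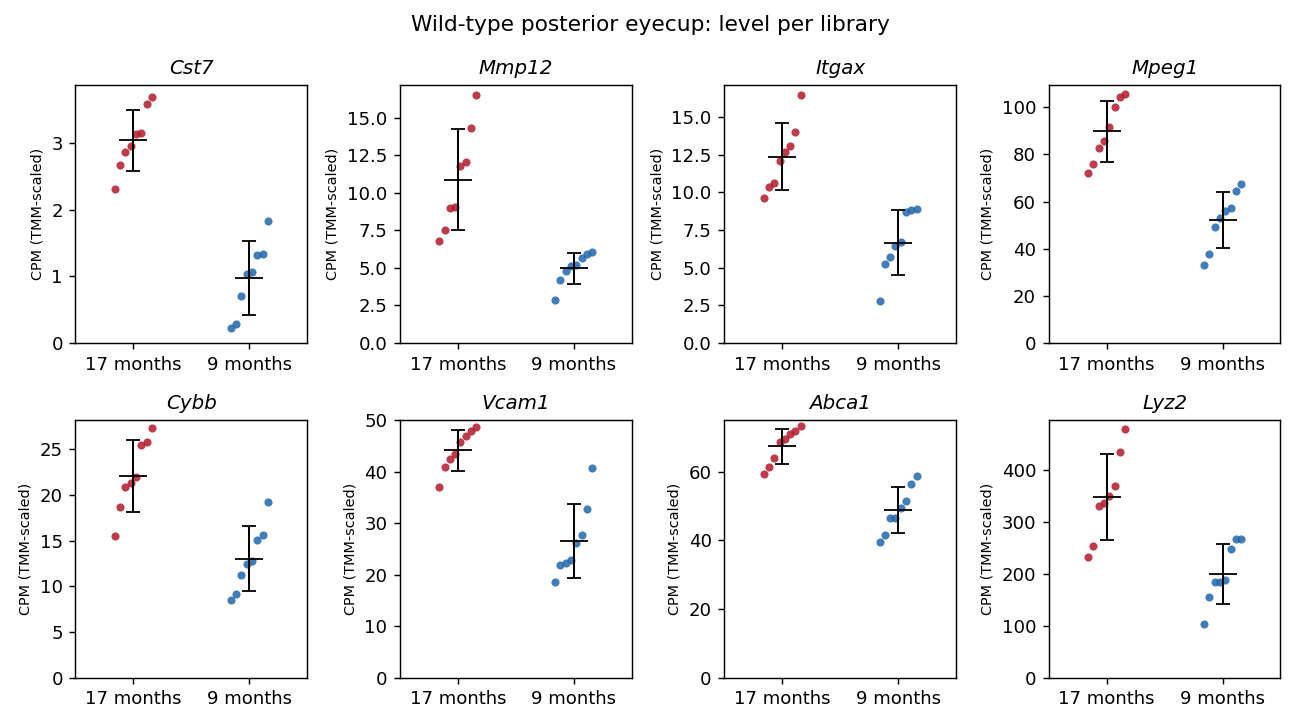
CPM per library (points, spread sideways by level) with the mean and SD in wild-type eyecups at 17 months (left) and 9 months (right) for the 7 genes that rose and for Lyz2, which did not pass the threshold. Cst7, Mmp12, Itgax, Mpeg1 and Abca1 do not overlap between the ages, and Cybb and Vcam1 do.

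Every 17-month library lay above every 9-month library for 6 genes (0.0333% of genes tested) and below for 1 gene (0.00555%). The 6 were Cst7, Mmp12, Itgax, Mpeg1, Abca1 and the noncoding RNA gene Gm17276. Gm17276 and the gene below, Clca4a of a chloride channel regulator family, were named after their values were seen. Gm17276 had a log2 fold change of 0.56 (edgeR adjusted p = 0.235) and Clca4a one of -0.97 (edgeR adjusted p = 0.104), so neither was called. Reads of Clca4a can be shared with near-identical copies of its family.

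The 7 genes lie on 6 autosomes and the X chromosome. In the coordinates of the deposited table (GRCm38), Cst7 is on chromosome 2 at 150570415 to 150578944, Mmp12 on chromosome 9 at 7344381 to 7369499 and Itgax on chromosome 7 at 128129547 to 128150657. Mpeg1 is on chromosome 19 at 12460779 to 12465284, Cybb on chromosome X at 9435252 to 9487771, Vcam1 on chromosome 3 at 116109949 to 116129688 and Abca1 on chromosome 4 at 53030787 to 53159895. Promoter windows of 300 bases, 250 before to 50 after a gene start, were taken from RefSeq (GRCm38.p6) and were found for 6 of the 7 genes, with 2 windows for Mmp12. They were searched on both strands for the letters GAGGAA, the core of the element read by PU.1, a factor of the myeloid lineage. The letters were found in 28.3% of the 32851 windows of this length and in windows of 2 of the 6 genes, Mmp12 and Cybb. Here 3 windows are shown because these genes moved together, with the match in capitals as it reads on the strand of the gene (the reverse complement in both). The Mmp12 window is chr9:7344147-7344446 on the plus strand, with its match 86 bases before the start. The Cybb window is chrX:9469275-9469574 on the minus strand, with its match at base 10 after the start. That start is the one in RefSeq. It lies inside the gene of the deposited table, whose own start on this strand is 9487771. The Cst7 window, chr2:150570165-150570464 on the plus strand, holds no match. A match is a description of the letters and not of binding.
Mmp12: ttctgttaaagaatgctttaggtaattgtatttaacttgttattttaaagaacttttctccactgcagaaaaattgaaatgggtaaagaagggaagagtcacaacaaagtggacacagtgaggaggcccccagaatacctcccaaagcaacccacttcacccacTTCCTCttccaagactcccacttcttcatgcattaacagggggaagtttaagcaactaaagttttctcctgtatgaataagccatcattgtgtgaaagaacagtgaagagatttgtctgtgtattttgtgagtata
Cybb: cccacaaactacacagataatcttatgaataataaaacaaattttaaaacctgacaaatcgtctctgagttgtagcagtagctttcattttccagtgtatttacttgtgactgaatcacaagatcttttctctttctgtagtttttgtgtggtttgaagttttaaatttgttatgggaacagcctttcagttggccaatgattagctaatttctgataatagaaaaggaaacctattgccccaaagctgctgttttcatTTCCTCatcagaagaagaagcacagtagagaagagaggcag
Cst7: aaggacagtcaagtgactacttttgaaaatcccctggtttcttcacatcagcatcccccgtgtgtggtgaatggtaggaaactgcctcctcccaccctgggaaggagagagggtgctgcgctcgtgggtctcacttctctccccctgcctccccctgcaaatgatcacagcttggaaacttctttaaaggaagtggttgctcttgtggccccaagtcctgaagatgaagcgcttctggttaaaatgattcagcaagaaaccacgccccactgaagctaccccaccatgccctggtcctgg

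Beyond the called genes, the higher genes with the smallest p did not pass the adjusted threshold. The 12 higher genes named by a fixed rule (smallest p, a log2 fold change of at least 0.5 and a mean log2 CPM of at least 0) comprised 6 of the 7 called genes and Spp1, Itgb2, Lyz2, Adcy9, Csf2rb and Laptm5, of which Laptm5 alone is in the macrophage and microglia list. Spp1, osteopontin, had 42.7 to 105 CPM at 17 months (median 80.6) and 22.6 to 55.8 CPM at 9 months (median 50.6), with a log2 fold change of 0.84 ± 0.18 (edgeR adjusted p = 0.0552). Lyz2, the lysozyme of macrophages and neutrophils, had 232 to 477 CPM at 17 months (median 343) and 104 to 266 CPM at 9 months (median 186), with a log2 fold change of 0.80 ± 0.18 (edgeR adjusted p = 0.0561). Its reads can be shared with the near-identical Lyz1. For both genes the highest libraries at 9 months overlapped the lowest at 17 months. Itgb2, the shared beta chain of the leukocyte integrins, had a log2 fold change of 0.78 (edgeR adjusted p = 0.0561). Csf2rb, the beta chain of receptors for GM-CSF and related cytokines, had 0.75 (edgeR adjusted p = 0.0651), and its reads can be shared with Csf2rb2. Laptm5, a lysosomal membrane protein of blood cells, had 0.53 (edgeR adjusted p = 0.0824). Adcy9, an adenylyl cyclase not restricted to myeloid cells, had 0.58 (edgeR adjusted p = 0.0593). Each of these 6 passed the threshold in some of the 16 fits that left out 1 library: 5 each for Spp1, Lyz2 and Itgb2, 3 each for Csf2rb and Laptm5, and 6 for Adcy9. The lowest adjusted p was 0.00993 for Spp1, 0.0167 for Lyz2, 0.0109 for Itgb2 and 0.00996 for Laptm5, all without replicate 2 of 17 months. It was 0.0158 for Csf2rb without replicate 1 of 17 months and 0.0174 for Adcy9 without replicate 4 of 9 months. The highest edgeR adjusted p was 0.166 for Spp1, Lyz2, Itgb2 and Adcy9, 0.172 for Csf2rb and 0.175 for Laptm5. All of these came without replicate 8 of 9 months.

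Among 19 tested genes of macrophages and microglia, 11 had an unadjusted p under 0.05 and were higher at 17 months and 0 were lower, with none called after adjustment. Their median log2 fold change was 0.45, against -0.01 over all 18003 genes. Of those 18003 genes, 7.32% were higher and 4.24% lower at an unadjusted p under 0.05, the shares to set beside each list. Trem2, the lipid-sensing receptor of microglia and macrophages, had 10.8 to 21.1 CPM at 17 months (median 13.6) and 3.18 to 11.9 CPM at 9 months (median 9.28), and a log2 fold change of 0.78 ± 0.18 (edgeR adjusted p = 0.0989). It passed in 2 of the 16 fits that left out 1 library, at an adjusted p of 0.0461 at lowest, without replicate 7 of 9 months. At highest it had an edgeR adjusted p of 0.181, without replicate 8 of 9 months. Ctss, the lysosomal protease cathepsin S, had a log2 fold change of 0.57 ± 0.15 (edgeR adjusted p = 0.110). Gpnmb, made by melanocytes and by lipid-laden macrophages alike and listed with the melanosome genes, had 138 to 335 CPM at 17 months (median 193) and 47.4 to 197 CPM at 9 months (median 126), with a log2 fold change of 0.66 ± 0.21 (edgeR adjusted p = 0.210). The general macrophage markers Csf1r, Adgre1, Cx3cr1 and Aif1 were picked out after the values were seen. Csf1r, the growth factor receptor of the whole lineage, had 44.5 to 78.4 CPM at 17 months (median 69.4) and 35.8 to 77.7 CPM at 9 months (median 62.2), a log2 fold change of 0.13 ± 0.14 (edgeR adjusted p = 0.775). Adgre1, encoding F4/80, had a log2 fold change of 0.54 ± 0.16 (edgeR adjusted p = 0.210), Cx3cr1 0.40 ± 0.15 (edgeR adjusted p = 0.299) and Aif1 0.29 ± 0.17 (edgeR adjusted p = 0.543). With the mean level of these 4 markers as a covariate, all 7 genes were called, at edgeR adjusted p of 0.000172 to 0.00236, and most had smaller log2 fold changes. Cybb had 0.41 with the covariate against 0.76 without it, Mpeg1 0.43 against 0.78, Itgax 0.60 against 0.89, Vcam1 0.50 against 0.73 and Mmp12 0.84 against 1.13. Cst7 had 1.44 against 1.62 and Abca1 0.46 against 0.47. The same fit called 4977 of 18003 genes in all, 2397 of them higher, against 9 genes without the covariate. Its calls therefore do not set the 7 genes apart.

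**Figure D3:**
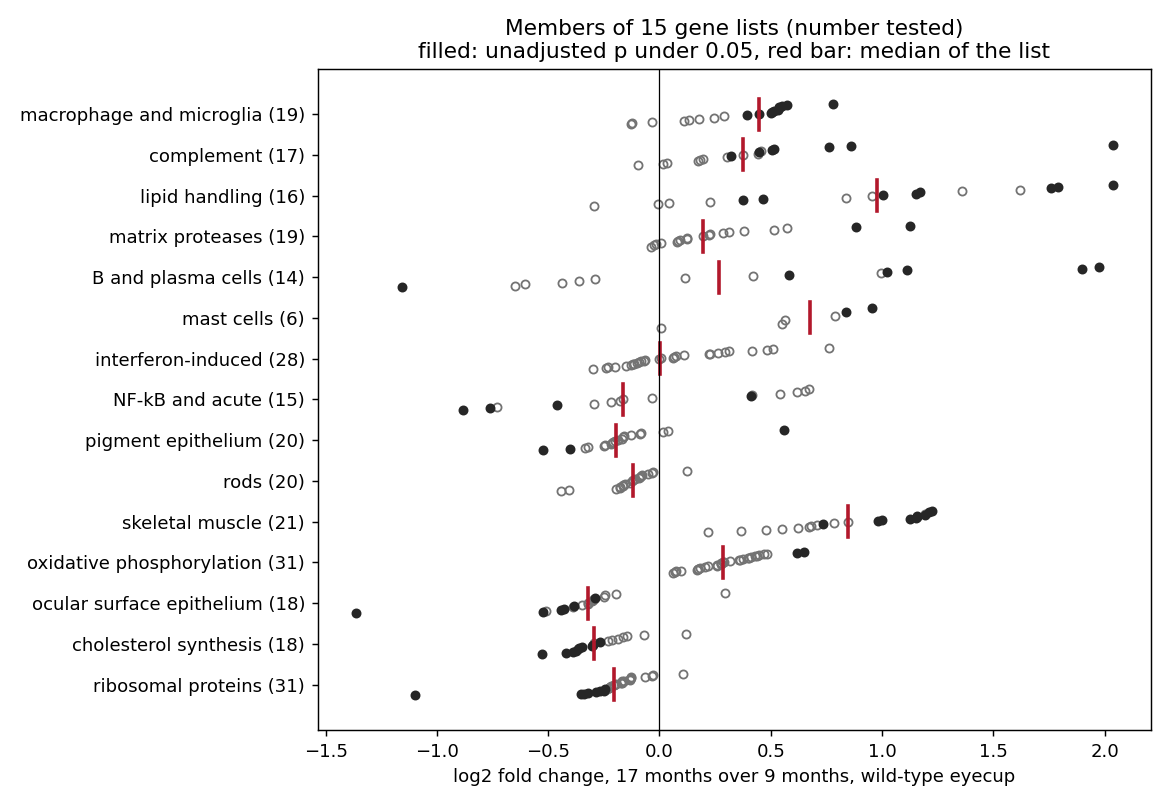
Log2 fold change, 17 over 9 months, of each tested member of 15 gene lists in wild-type eyecups (open points, filled where the unadjusted p is under 0.05), with the median of each list in red. Members of the macrophage, complement, lipid handling and skeletal muscle lists lie mostly to the right of 0, and those of the ocular surface, cholesterol synthesis and ribosomal lists mostly to the left.

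Complement is a cascade of plasma proteins that tags surfaces for phagocytes, and macrophages supply part of it locally. Of 17 tested components and receptors, 7 were higher and 0 lower at an unadjusted p under 0.05, none after adjustment, with a median log2 fold change of 0.38. The shares over all genes were 7.32% higher and 4.24% lower. C1qa is in both this list and the macrophage list. C3, the protein on which the pathways converge, had 86.9 to 240 CPM at 17 months (median 180) and 55.5 to 180 CPM at 9 months (median 87.3), a log2 fold change of 0.76 ± 0.20 (edgeR adjusted p = 0.110). C3ar1, the receptor for its fragment C3a, had 7.97 to 18.2 CPM at 17 months (median 10.9) and 3.07 to 8.73 CPM at 9 months (median 6.70), a log2 fold change of 0.86 ± 0.21 (edgeR adjusted p = 0.0989). The C1q subunit genes C1qa and C1qb, which start the classical pathway and are made by macrophages, both had log2 fold changes of 0.51 (edgeR adjusted p = 0.138 and 0.144). With replicate 2 of 17 months left out, the adjusted p was 0.0485 for C1qa, 0.0491 for C1qb and 0.0476 for C3ar1. C3 passed without that library too and had its lowest adjusted p, 0.0363, without replicate 3 of 9 months. With other single libraries left out, the edgeR adjusted p rose to 0.240 for C1qa, 0.242 for C1qb, 0.217 for C3ar1 and 0.257 for C3. Cfb, factor B of the alternative pathway, had 8.82 to 32.1 CPM at 17 months (median 17.99) and 9.15 to 21.1 CPM at 9 months (median 14.2), and its log2 fold change of 0.38 ± 0.21 was not called (edgeR adjusted p = 0.495). Efemp1 itself, which encodes a fibulin of elastic fibres, had 147 to 286 CPM at 17 months (median 233) and 176 to 297 CPM at 9 months (median 262), with a log2 fold change of -0.21 ± 0.14 (edgeR adjusted p = 0.594).

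Genes of lipid handling had a median log2 fold change of 0.98 over 16 tested members, of which 8 were higher and 0 lower at an unadjusted p under 0.05 and Abca1 alone was called. The shares over all genes were 7.32% higher and 4.24% lower. Apoe, the apolipoprotein of macrophages, glia and pigment epithelium, had 1082 to 1833 CPM at 17 months and 566 to 1302 CPM at 9 months, a log2 fold change of 0.38 ± 0.14 (edgeR adjusted p = 0.278). Several other members are fat cell genes, and 3 libraries at 17 months were rich in fat. Plin4, a lipid droplet protein, had 15.2 to 218 CPM at 17 months and 17.2 to 73.1 CPM at 9 months, with a log2 fold change of 1.17 ± 0.45 (edgeR adjusted p = 0.309). The part of the fat-rich libraries in the values of this list was not tested. Leaving out those 3 libraries, a choice made after the values were seen, left no gene called and 779 with an unadjusted p under 0.05. The 7 genes then had log2 fold changes of 0.47 to 1.60 with edgeR adjusted p of 0.0806 to 0.127. With covariates for muscle, ocular surface epithelium and rods, 38 genes were called, all 7 among them, at log2 fold changes of 0.36 to 1.89.

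Other immune lists differed less or rested on few genes. Some of their counts are near the shares over all genes, 7.32% higher and 4.24% lower at an unadjusted p under 0.05. Of 14 tested B and plasma cell genes, 5 were higher and 1 lower at an unadjusted p under 0.05, none called, with a median log2 fold change of 0.27. Igha, the heavy chain of IgA, had 0.899 to 10.1 CPM at 17 months (median 2.20) and 0.0535 to 2.34 CPM at 9 months (median 0.538), a log2 fold change of 1.97 ± 0.55 (edgeR adjusted p = 0.161). Ighg2c, an IgG heavy chain, had a log2 fold change of 1.90 (edgeR adjusted p = 0.264), Ighm, that of IgM, 1.11 (edgeR adjusted p = 0.235) and Cd22, a B cell surface lectin, 0.58 (edgeR adjusted p = 0.235). Of 6 tested mast cell genes, 2 were higher at an unadjusted p under 0.05, the proteases Cma1 with a log2 fold change of 0.95 (edgeR adjusted p = 0.310) and Tpsb2 with 0.84 (edgeR adjusted p = 0.362). Among 13 T and NK cell genes, 2 were higher and 1 lower at an unadjusted p under 0.05. Cd8a, the coreceptor of cytotoxic T cells, had a log2 fold change of 0.76 (edgeR adjusted p = 0.383) and Gzma, a granule protease, -1.26 (edgeR adjusted p = 0.317). Of 10 MHC class II genes 1 was higher at an unadjusted p under 0.05, H2-DMa, with a log2 fold change of 0.30 (edgeR adjusted p = 0.416). None of 28 interferon-induced genes had an unadjusted p under 0.05 in either direction, and their median log2 fold change was 0.00. Cxcl10, a chemokine for T cells and the member with the smallest p, had 8.05 to 17.4 CPM at 17 months and 4.29 to 11.7 CPM at 9 months (edgeR adjusted p = 0.453). The 15 genes of NF-kB and the acute response had a median of -0.16, with 1 higher at an unadjusted p under 0.05, the adhesion molecule Icam1 (log2 fold change 0.41), and 3 lower, among them the cytokines Tnf (-0.88) and Il1a (-0.76).

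In the matrix protease list, 2 of 19 tested genes were higher and 0 lower at an unadjusted p under 0.05, and Mmp12 alone was called. Mmp3, stromelysin, had a log2 fold change of 0.51 (edgeR adjusted p = 0.470) and Timp1, an inhibitor of these proteases, 0.57 (edgeR adjusted p = 0.470). The 23 genes of fibrillar collagens had a median log2 fold change of -0.02, with 2 higher and 0 lower at an unadjusted p under 0.05, and the 16 of elastic fibres and fibulins had -0.07 with 0 in either direction. The higher counts of the protease and fibrillar collagen lists are near the share over all genes, 7.32%, with 4.24% lower.

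Genes of the pigment epithelium had a median log2 fold change of -0.19 over 20 members, with 1 higher and 2 lower at an unadjusted p under 0.05 and none called. The shares over all genes were 7.32% higher and 4.24% lower. Rpe65, the isomerase of the visual cycle, had 60.2 to 146 CPM at 17 months (median 113) and 56.3 to 255 CPM at 9 months (median 157), a log2 fold change of -0.52 ± 0.24 (edgeR adjusted p = 0.397). Rrh, peropsin, had a log2 fold change of -0.40 (edgeR adjusted p = 0.312), and Slc16a3, a lactate carrier, had 0.56 (edgeR adjusted p = 0.224). Best1, the basolateral anion channel of these cells, had -0.32 (edgeR adjusted p = 0.504). Skeletal muscle genes were all 21 above 0, with 10 higher at an unadjusted p under 0.05, none called and a median of 0.85. Neb, nebulin of the thin filament, had 133 to 1372 CPM at 17 months and 124 to 488 CPM at 9 months, a log2 fold change of 1.16 ± 0.44 (edgeR adjusted p = 0.296). The 31 nuclear genes of oxidative phosphorylation were likewise all above 0, with a median of 0.29 and 2 at an unadjusted p under 0.05, Sdha (log2 fold change 0.62) and Ndufs1 (0.65). Their part in the muscle-rich libraries was not tested.

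In edgeR's test no gene of the lower side apart from Alb and Cyp4a14 passed the threshold. The number of lower calls depended on the tool, with 17 lower and 102 higher in DESeq2 and 103 lower and 129 higher in limma on voom values with quality weights. The 12 lower genes named by the rule were Duox2, Rpl10, Dkkl1, Clca3b, Slc15a1, Magee2, Plac8, Plet1, Il1f9, Slc5a1, Chit1 and Myb, with log2 fold changes of -1.23 to -0.56 and edgeR adjusted p of 0.0651 to 0.170. Duox2, an oxidase that releases hydrogen peroxide at mucosal surfaces, had 1.19 to 2.86 CPM at 17 months (median 2.35) and 1.75 to 5.99 CPM at 9 months (median 4.88), a log2 fold change of -0.91 ± 0.20. Il1f9, the epithelial cytokine IL-36 gamma, had 7.04 to 24.9 CPM at 17 months (median 9.00) and 13.2 to 52.7 CPM at 9 months (median 26.5), a log2 fold change of -1.23 ± 0.34. Rpl10, a ribosomal protein of the large subunit, had 75.8 to 201 CPM at 17 months (median 123) and 159 to 544 CPM at 9 months (median 271), a log2 fold change of -1.10 ± 0.26. Of the 12, the genes that passed with a single library left out were Duox2 in 3 of 16 fits (lowest adjusted p 0.0154), Clca3b in 2 (0.0400), and Plet1 and Rpl10 in 1 each (both 0.0457, without replicate 4 of 9 months). Their highest edgeR adjusted p in these fits was 0.181 for Duox2, 0.217 for Clca3b, 0.371 for Plet1 and 0.200 for Rpl10. Rpl10 reads can be shared with the many processed copies of that gene. Among 31 ribosomal protein genes 8 were lower and 0 higher at an unadjusted p under 0.05, against 4.24% and 7.32% of all genes. The median of the 31 was -0.20, with Rpl5 at -0.29 and Rpl30 at -0.34.

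In the ocular surface epithelium list, 6 of 18 genes were lower and 0 higher at an unadjusted p under 0.05, against 4.24% and 7.32% of all genes. The median log2 fold change of the list was -0.32. Krt13, a keratin of the conjunctiva, had a log2 fold change of -0.52 ± 0.18 (edgeR adjusted p = 0.260). Krt16, a keratin of stressed epithelium, had 1.69 to 9.54 CPM at 17 months (median 5.33) and 3.12 to 56.2 CPM at 9 months (median 9.74), and a log2 fold change of -1.37 ± 0.51 (edgeR adjusted p = 0.287). Enzymes of cholesterol synthesis had a median of -0.30 over 18 members, 10 of them lower and 0 higher at an unadjusted p under 0.05. Idi1, the isomerase of the isoprenoid branch, had 68.2 to 120 CPM at 17 months (median 78.1) and 90.2 to 184 CPM at 9 months (median 126), a log2 fold change of -0.53 ± 0.21 (edgeR adjusted p = 0.312). Fdps, which makes farnesyl diphosphate, had a log2 fold change of -0.42 (edgeR adjusted p = 0.317) and Nsdhl, a sterol dehydrogenase, -0.38 (edgeR adjusted p = 0.362). Ocular surface markers moved the same way, and their part in the cholesterol enzymes was not tested.

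Alb, serum albumin, and Cyp4a14, a fatty acid hydroxylase of the liver and kidney, had few reads, unevenly spread over the libraries. Alb had 0 to 0.0682 CPM at 17 months and 0 to 12.6 CPM at 9 months (median 1.30). In wild-type eyecups at 3 months Alb had 0 to 0.593 CPM (median 0), so its level stood out at 9 months and not at 3 months. Its summed estimated counts were 2 at 17 months and 577 at 9 months, a ratio of 0.00418 after scaling for library size (exact 95% interval 0.000505 to 0.0152, counting error only). A count of Alb was found in 2 of 8 libraries at 17 months and 6 of 8 at 9 months, where replicate 6 alone had 353. Without replicate 6 of 9 months Alb was still called (log2 fold change -6.31, edgeR adjusted p = 0.0164). Cyp4a14 had 10 counts at 17 months and 191 at 9 months, a ratio of 0.0632 (0.0298 to 0.119), with a count in 5 of 8 and 7 of 8 libraries, and the same replicate 6 held 111 of the 191. The log2 fold changes were -7.25 ± 1.25 for Alb (edgeR adjusted p = 0.00731) and -3.75 ± 0.76 for Cyp4a14 (edgeR adjusted p = 0.0283). Without replicate 4 or 5 of 17 months the adjusted p of Cyp4a14 was 0.0678 and 0.0745, and without replicate 3, 4, 5 or 6 of 9 months the gene did not pass the filter on low counts. Neither Alb nor Cyp4a14 passed that filter when only the 16 libraries were fitted. Median CPM of Cyp4a14 in wild type was 0.119 at 3 months, 0.672 at 9 months and 0.0765 at 17 months. Hepatocyte genes were looked up after these values were seen, 19 of 20 in the table and 6 tested, and they summed to 7.70 to 65.0 CPM at 17 months (median 19.8) and 10.1 to 37.9 CPM at 9 months (median 16.5). Cyp2e1, which fat cells also make, took most of the highest sum at 17 months, with 57.3 CPM. Apart from Alb and Cyp4a14, 10 of 17 hepatocyte genes had a count in fewer libraries at 17 months than at 9 months, 2 in more and 5 in as many. The same tally was not made over other genes of like level. Library totals were lower at 17 months (median 17270306 against 19935872 estimated counts), and their part in this tally was not tested. Ahsg had a count in 2 libraries at 17 months and 8 at 9 months, while Serpina1a had one in 7 at 17 months and 5 at 9 months. Limma on voom values with quality weights gave neither gene an adjusted p under 0.05 (0.126 for Alb and 0.0942 for Cyp4a14). In limma on log2(TPM + 1) it was 0.0453 for Alb and 0.0902 for Cyp4a14.

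The Efemp1ki/ki eyecups share no library with the wild-type ones, and 17 months was set against 9 months in them by the same fit. In these, 112 genes were called (0.622%), 102 higher (0.567%) and 10 lower (0.0555%). GC offsets gave 54 calls, 52 higher and 2 lower, the covariates for muscle, ocular surface epithelium and rods gave 521, 350 higher and 171 lower, and DESeq2 gave 190, 153 higher and 37 lower. Of the 7 genes that rose in wild type, 6 also rose in Efemp1ki/ki eyecups, which is 85.7% of the 7 and 5.88% of the 102. The same 6 passed in Efemp1ki/ki eyecups under GC offsets, the covariates and DESeq2. Cst7 had a log2 fold change of 2.50 in Efemp1ki/ki eyecups against 1.62 in wild type, Mmp12 1.50 against 1.13, Itgax 1.32 against 0.89, Mpeg1 0.97 against 0.78, Cybb 0.88 against 0.76 and Vcam1 0.84 against 0.73. Abca1 was the exception, with 0.19 in Efemp1ki/ki eyecups (edgeR adjusted p = 0.298) against 0.47 in wild type. Of the 12 higher genes named by the rule, 11 rose in Efemp1ki/ki eyecups, and Adcy9 had 0.28 (edgeR adjusted p = 0.334). Seen from the other side, 97 of the 102 genes had a log2 fold change above 0 in wild type (95.1%, against 48.3% of all genes), with a median of 0.50. Of the 102, 83 (81.4%) were higher in wild type at an unadjusted p under 0.05, against 7.32% of all genes. Both tests used the same estimate of each gene's spread, so a gene of low spread is favoured in both. The share over all genes is not matched for this.

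**Figure D4:**
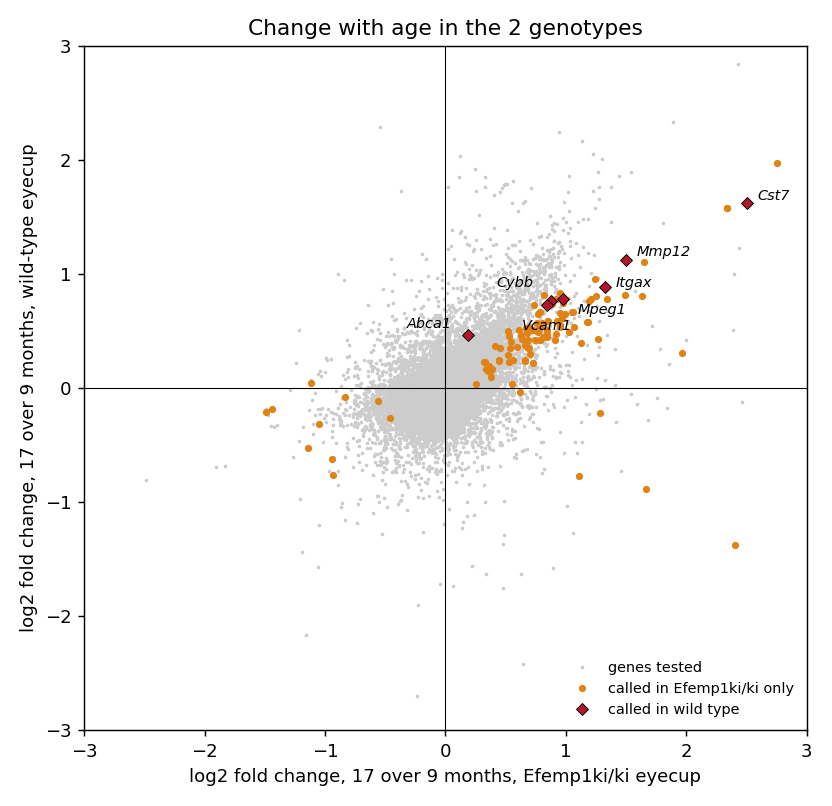
Log2 fold change, 17 over 9 months, in wild-type eyecups (vertical) against Efemp1ki/ki eyecups (horizontal) for 18003 genes (grey), genes called in Efemp1ki/ki eyecups (orange) and genes called in wild type (red), with 7 genes outside the plotted range of 3. Most genes higher in Efemp1ki/ki eyecups lie above 0 in wild type too, and Abca1 lies near 0 on the horizontal axis.

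Of the 10 genes called lower in Efemp1ki/ki eyecups, 9 were below 0 in wild type, against 51.7% of all genes. Neither Alb nor Cyp4a14 fell in Efemp1ki/ki eyecups, and of the 12 lower genes 9 were below 0 there and 1, the X-linked Magee2, fell (log2 fold change -0.93, edgeR adjusted p = 0.0185). Duox2 had -0.07 in Efemp1ki/ki eyecups against -0.91 in wild type, and Il1f9 had 0.14 against -1.23. The difference of the change between genotypes was called for 3 genes (0.0167%), Alb, Cyp4a14 and Rnf224, each with a more negative change in wild type. For Alb and Cyp4a14 it rests on the few and uneven reads described above. With GC offsets Rnf224 was not called (edgeR adjusted p = 0.0961) and the other 2 were, while DESeq2 called 5 genes. In the fit without offsets 417 genes (2.32% of 18003) had an unadjusted p under 0.05. Rnf224, a ring finger protein of unsettled function, had 0.346 to 0.933 CPM at 17 months (median 0.429) and 0.507 to 1.18 CPM at 9 months (median 0.962) in wild type, and 0.657 to 2.63 CPM (median 1.17) and 0.507 to 1.07 CPM (median 0.567) in Efemp1ki/ki eyecups. The difference of its log2 fold changes, wild type minus Efemp1ki/ki, was -1.88 ± 0.35 (edgeR adjusted p = 0.0241). Tnf, with the next smallest p, had a log2 fold change of -0.88 in wild type and 1.67 in Efemp1ki/ki eyecups, and the difference was not called (edgeR adjusted p = 0.0934). None of the 7 genes that rose differed between genotypes after adjustment, and the unadjusted p was 0.0180 for Abca1 and 0.0407 for Cst7.

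Levels of the same genes at 3 months were as follows, with medians in CPM from 3 to 9 to 17 months in wild type. Cst7 had 0.471, 1.05 and 3.05, Mmp12 2.97, 5.15 and 10.5, Itgax 3.31, 6.57 and 12.4, Mpeg1 30.0, 54.5 and 88.7, and Lyz2 93.1, 186 and 343. Vcam1 had 20.1, 24.5 and 44.6 and Abca1 43.2, 48.0 and 69.1. All of these medians stand in the order of age, but the genes were picked for being higher at 17 than at 9 months. Between 9 and 3 months, which uses the same 9-month libraries, 6 genes were called higher at 9 months (0.0333%). Among those named here, Itgax had a log2 fold change of 0.91 (edgeR adjusted p = 0.0255), Lyz2 1.00 (edgeR adjusted p = 0.00698), Cd22 1.04 (edgeR adjusted p = 0.0202) and Alb 4.61 (edgeR adjusted p = 0.0475), while Vcam1 had 0.33 (edgeR adjusted p = 0.655) and Abca1 0.17 (edgeR adjusted p = 0.700). Also not called between 9 and 3 months were Cst7 at 1.22 (edgeR adjusted p = 0.215), Mpeg1 at 0.68 (edgeR adjusted p = 0.0660) and Mmp12 at 0.57 (edgeR adjusted p = 0.590).

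**Figure D5:**
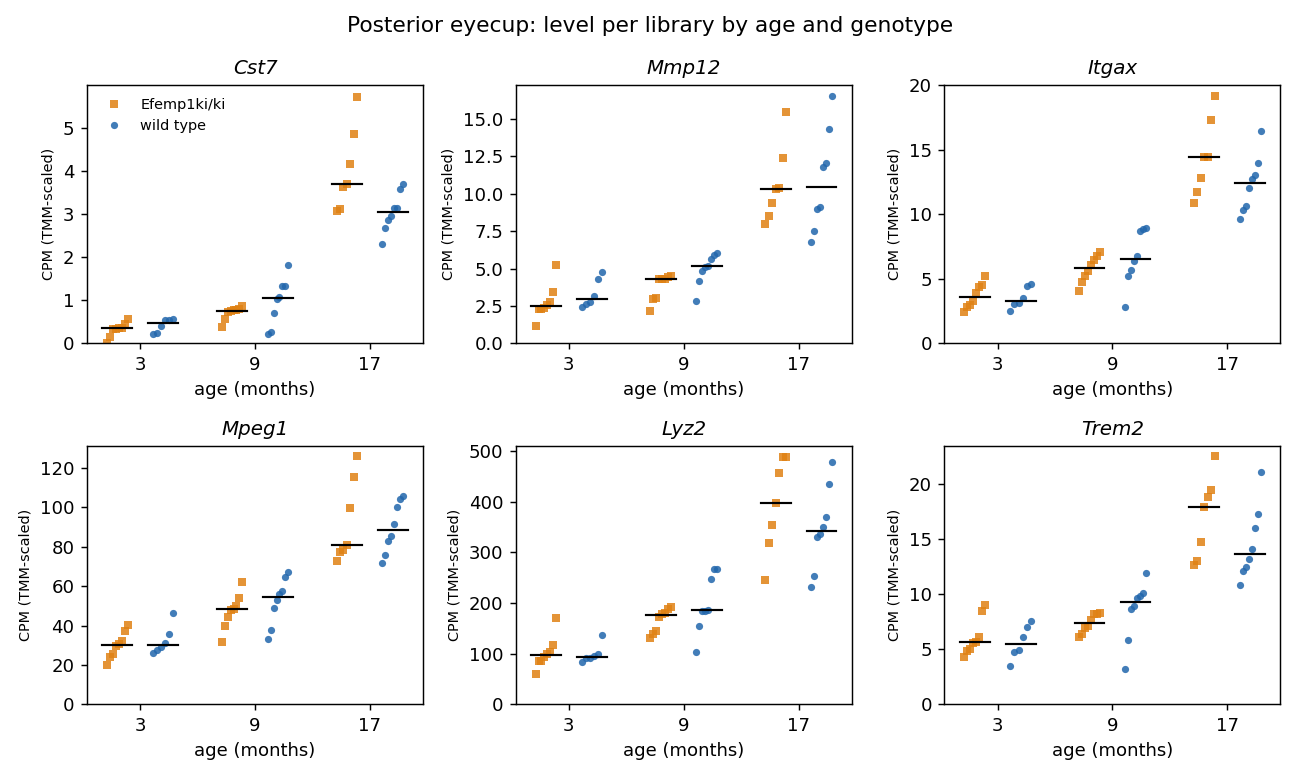
CPM per library (points) with the median as a bar for 6 genes in Efemp1ki/ki (orange squares) and wild-type (blue circles) eyecups at 3, 9 and 17 months. Medians stand in the order of age in both genotypes for all 6 genes, which were picked from the comparison of 17 with 9 months in wild type.

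In the neural retina of wild-type mice, 1764 genes were higher at 17 than at 9 months (10.2% of 17240 tested). All 12 higher eyecup genes named by the rule were tested there, and 3 rose, Mpeg1 (log2 fold change 0.40, edgeR adjusted p = 0.00830), Itgb2 (0.55, edgeR adjusted p = 0.0275) and Adcy9 (0.37, edgeR adjusted p = 0.000401). Abca1 rose in the retina as well (0.34, edgeR adjusted p = 0.00421), as did C1qa (0.52, edgeR adjusted p = 0.000492) and Trem2 (0.62, edgeR adjusted p = 0.00830). Mmp12 had 0.174 to 0.885 CPM at 17 months and 0.337 to 1.32 CPM at 9 months in the retina, with a log2 fold change of -0.36 (edgeR adjusted p = 0.413), and Vcam1 had 0.05 (edgeR adjusted p = 0.644). The difference of the change between eyecup and retina was called for no gene (0%, edgeR over 19210 genes), and 1910 genes (9.94%) had an unadjusted p under 0.05. Vcam1 was among those with the smallest p, with a difference of 0.69 ± 0.15 (edgeR adjusted p = 0.130), and Mmp12 had a difference of 1.49 ± 0.37 (edgeR adjusted p = 0.171).

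The trend of counts with GC content differed between the ages, -0.0424 ± 0.0571 at 17 months and -0.124 ± 0.0660 at 9 months in log2 units per 10 points of GC (SD, n = 8 each, exact 2-sided permutation p = 0.0197). With GC offsets 13 genes were called, 6 of the 7 among them, and Itgax missed the threshold at a log2 fold change of 0.85 (edgeR adjusted p = 0.0545).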

How the data were processed

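RNeasy micro columns with a DNase step and the TruSeq Stranded mRNA kit were used, per the labels' protocols. The authors deposited estimated counts per gene, on GRCm38.p4 per the submitters' processing notes; for aligner, counter and strand setting the entry is not given in the sources used here, and genes overlapping on opposite strands are uncertain. The deposited table named TPM was treated as a score, since its sums over all genes exceed those TPM allows, and served in 1 alternative (log2 with pseudocount 1). Per table, 1 column, which fits no sample's labels, was left aside.

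Estimated counts were rounded, filtered (filterByExpr), scaled by TMM and tested with edgeR 4.0.16 (quasi-likelihood, robust) in R 4.3.3 over 45 eyecup libraries, 48 retina libraries or all 93. Standard errors are the log2 fold change over the root of F. DESeq2 1.42.0 and limma 3.58.1 were alternatives. The tests were tested on simulated data.

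Members and gene lists were chosen with earlier results of these data known. Of 49 lists, 24 were described. Named genes were the 12 with the smallest p in each direction (absolute log2 fold change of at least 0.5, mean log2 CPM of at least 0) and, per described list, the 4 with the smallest p, with Efemp1 and Cfb always included. Some genes of this rule are not reported here. No 2 libraries agreed within sampling noise.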

Additional observations from a re-analysis of the deposited data

Results flagged for a closer look

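Among 172 groups of 4 to 10 libraries examined, a single library stood apart from the rest of its group by Dixon's criterion in the following cases. In each case it was the highest library. Chance alone marks about 1 group in 20 where values are normally distributed. The criterion was applied to CPM without a log, and its rate for skewed values was not tested. In wild-type eyecups at 17 months, replicate 7 had 20.4 CPM of Timp1 and 2.71 CPM of Ighg2c. Replicate 6 of that age had 0.933 CPM of Rnf224 and 5.33 CPM of Tnf, replicate 3 had 335 CPM of Gpnmb, and replicate 4 had 10.1 CPM of Igha.

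In wild-type eyecups at 9 months, replicate 6 had 12.6 CPM of Alb, 3.95 CPM of Cyp4a14 and 56.2 CPM of Krt16, and replicate 4 had 14.1 CPM of Timp1. At 3 months, replicate 3 had 28.7 CPM of Vcam1 and 11.1 CPM of Cybb, and replicate 6 had 0.593 CPM of Alb. In Efemp1ki/ki eyecups, replicate 6 of 9 months had 60.0 CPM of Abca1 and replicate 4 of 3 months had 0.195 CPM of Cyp4a14.

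The change from 9 to 17 months differed between wild-type and Efemp1ki/ki eyecups, by the test of the difference itself, for 3 genes. The difference of log2 fold changes, wild type minus Efemp1ki/ki, was -11.75 for Alb, -5.74 for Cyp4a14 and -1.88 for Rnf224. Each of the 3 had a log2 fold change below 0 in wild type and above 0 in Efemp1ki/ki eyecups. Alb and Cyp4a14 had few reads, unevenly spread over the libraries.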

How the results depend on the processing

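All 7 genes that rose had positive log2 fold changes under every alternative run. Against 9 called genes in wild-type eyecups, relative log expression size factors gave 21 (2 lower), DESeq2 119 (17 lower), limma voom with quality weights 232 (103 lower) and limma on log2(TPM + 1) 53 (10 lower). Covariates for muscle, surface epithelium and rods gave 38. A fit to only the 2 groups gave 0, with fewer libraries to estimate the spread and with Alb and Cyp4a14 not tested. Leaving out 1 library gave 7 to 42. Chosen after seeing the data were 4 further alternatives: a fat covariate added to those 3 gave 44, GC offsets with these 4 covariates 40, the macrophage marker covariate 4977, and leaving out the 3 Adipoq-richest libraries at 17 months 0. In Efemp1ki/ki eyecups, 112 called genes became 521 with the 3 covariates, 54 with GC offsets and 190 with DESeq2. The genotype difference, called for 3 genes, was called for 5 with DESeq2, 2 with GC offsets and 1, Alb, with the replicate block, where Cyp4a14 and Rnf224 both had an adjusted p of 0.244. Why these counts differ between alternatives, the fits with fewer libraries included, was not tested.

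Libraries of the 2 ages share 7 replicate numbers, whose pair correlations ran from -0.461 to 0.683, with 2 over 0.1. Of the libraries at 17 months, 1 correlated best with its own number. These values gave no sign that the numbers pair the samples. They cannot exclude a shared day or batch, since the libraries also differ in tissue content. The replicate block gave 8 called genes in wild type, with 7 of the 9 among them and adjusted p of 0.0509 for Cybb and 0.0858 for Cyp4a14, 9 together with GC offsets and 0 when only the 2 groups were fitted. Leaving out libraries beyond 3 scaled median absolute deviations gave no value, since none lay there. For named genes, 1923 values under alternatives (89.5% of them) kept direction and side of the threshold, 42 lost a call, 184 gained one and 0 reversed.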
